A study of Mus musculus with 10 samples.

Results

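Complement regulators are the proteins that hold the complement cascade in check. The set followed here was a fixed list of 9 genes, taken by name from the count table: Serping1, Cfi, Cd55, Cd46, Cd59a, Cr1l, Clu, Csmd1 and Csmd2. All 9 were among the 24391 gene names counted, and 19538 of those names were above 0 somewhere. The rule for the list uses names and no measured value, though the list was drawn up with earlier results of these data known.

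The values are RNA sequencing counts from whole bilateral hippocampus of male C57BL/6J mice (spelled C56BL/6J in the study's methods), 10 to 14 weeks old, taken 4 days after surgery with 1 library per mouse. In SAH mice (n = 4) a filament perforated the circle of Willis, the arterial ring at the base of the brain, and blood entered the subarachnoid space. Only mice whose cortical blood flow dropped steeply at that moment were kept. Sham mice (n = 3) had the filament placed with no puncture, and Naive mice (n = 3) were not operated on. Surgery was done under isoflurane anesthesia. The labels give no drug treatment, and the mice came from 1 animal batch assigned to groups at random. Sham and Naive mice together are called control (n = 6). Mice are numbered as in the labels: 1 to 4 for SAH, 5 to 7 for Sham and 8 to 10 for Naive.

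Complement is a chain of plasma proteases and binding proteins that tags surfaces with fragments of C3 and C4 and can end in a membrane pore. Each step has a brake. C1 inhibitor, the product of Serping1, inactivates the proteases C1r and C1s that start the classical pathway and the MASP proteases of the lectin pathway. Factor I (Cfi) cuts C3b and C4b once a cofactor holds them, and the cofactors include CD46 and, in rodents, Crry, the product of Cr1l. CD55 speeds the decay of the C3 and C5 convertases, CD59a blocks assembly of the membrane pore, and clusterin (Clu) binds terminal complexes in fluid. CSMD1 and CSMD2 are large membrane proteins with CUB and sushi domains. CSMD1 is known to inhibit complement, and both are expressed in neurons. In the brain, C1q and C3 tag synapses and microglia take up what is tagged.

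Each library held between 19743388 and 27254655 counts, with 20099076 to 26866167 in SAH mice and 19743388 to 26551775 in Naive mice, so depth did not separate the groups. Levels are in CPM, that is, counts divided by library size (adjusted by TMM) and scaled alike in all mice. The tests across genes are edgeR's quasi-likelihood test with Benjamini-Hochberg adjustment over all genes, and a gene passed at an adjusted p under 0.10. Hippocampal neuron markers (10 genes) were present in all mice, with a summed level of 1220 to 1256 CPM in SAH and 1098 to 1257 CPM in control. Of the marker lists, 9 of 10 fibroblast and meningeal genes, 4 of 10 mural, 3 of 10 endothelial, 2 of 10 microglial and 1 of 10 astrocyte genes rose in SAH against control. All 10 oligodendrocyte genes fell. The choroid plexus and neuron lists had 0 of 10 genes called by edgeR and by DESeq2, with 2 and 0 at an unadjusted p under 0.05, and 1 of 10 hippocampal neuron genes (C1ql2) rose. In the blood cell list 4 globin names were at 0 in all mice and the 1 tested gene did not pass. In whole tissue, a lower level can come from fewer cells of a type or from less RNA per cell, and these cannot be told apart here.

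Of the 9 regulators, 8 had enough counts to be tested, and Cfi did not. Serping1 was the 1 gene of the 8 that rose in SAH against control, where 3.13% of all 14993 tested genes rose and 4.68% changed in either direction. No regulator fell (0 of 8, with 1 at an unadjusted p under 0.05 and 0 by DESeq2), where 1.54% of all genes fell. The median log2 fold change of the 8 genes was 0.093, beside −0.0024 over all tested genes, with 6 values above 0 and 2 below. Serping1 was again the 1 regulator that rose against Sham alone, where 0.529% of 15134 genes rose and 0.72% changed in either direction, and against Naive alone, where 2.03% rose and 2.99% changed. No regulator fell in these comparisons (0 by DESeq2, and 0 and 1 at an unadjusted p under 0.05), where 0.192% and 0.965% of all genes fell. The comparisons with control, Sham and Naive share the SAH mice and are not independent of each other.

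**Figure D1:**
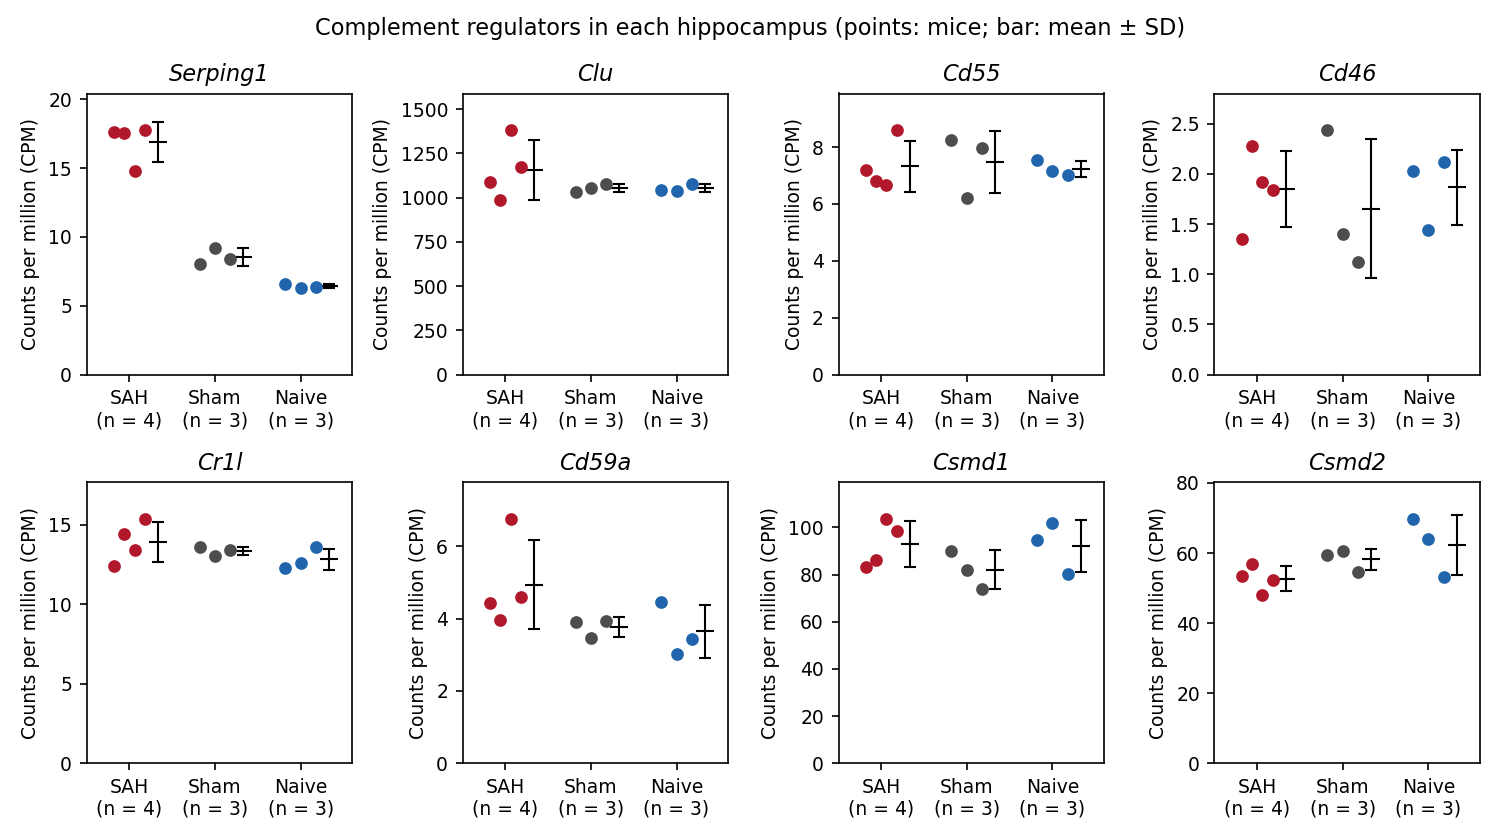
Level of 8 complement regulators in each mouse, in CPM (y axis, linear from 0), by group (x axis: SAH, Sham, Naive); points are mice and bars give the mean ± SD. The Serping1 points of the 4 SAH mice (14.8 to 17.7 CPM) lie above all control points (6.32 to 9.23 CPM), while in the other panels the SAH points do not all lie on one side of the control points.

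Serping1 lies at chr2:84605517-84615586 (mm9, minus strand), and its 8 exons hold 1820 bases, 83.1% of them coding. It measured 17.6, 17.5, 14.8 and 17.7 CPM in SAH mice 1 to 4. The Sham mice 5 to 7 had 8.01, 9.23 and 8.37 CPM, and the Naive mice 8 to 10 had 6.58, 6.32 and 6.37 CPM. Every SAH mouse was above every control mouse, and every Sham mouse was above every Naive mouse. Depth was ample for this gene, with 292 to 477 counts in SAH and 123 to 251 in control.

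SAH mice averaged 16.9 ± 1.44 CPM (SD, n = 4), against 7.48 ± 1.22 CPM (SD, n = 6) for control mice. The fitted difference was 2.26-fold (95% interval 1.91 to 2.66), a log2 fold change of 1.17 (standard error 0.11, edgeR adjusted p = 0.000328). Against Sham the log2 fold change was 0.99 (standard error 0.093, edgeR adjusted p = 0.00106), and against Naive it was 1.40 (standard error 0.097, edgeR adjusted p = 6.01e-05). Among all genes with every SAH mouse above every control mouse, which made up 2.83% of those tested, Serping1 was the 1 regulator of this list. No regulator had every SAH mouse below every control mouse, as 2.37% of genes did.

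**Figure D2:**
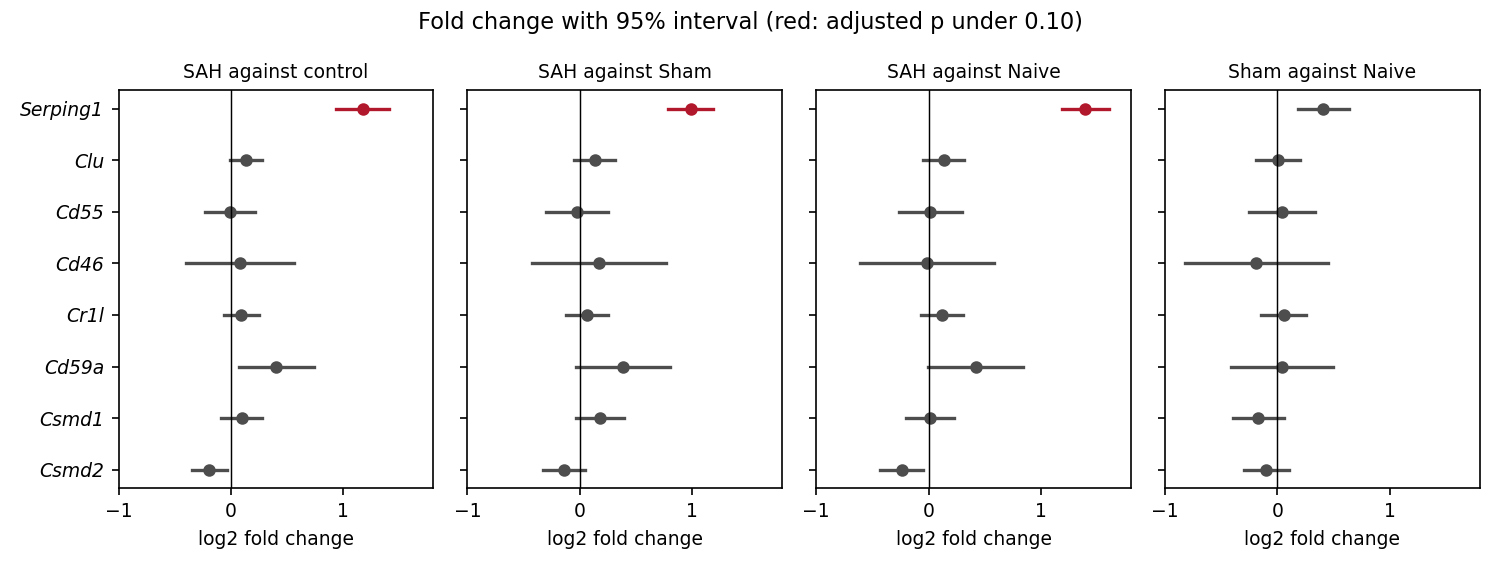
Log2 fold change (x axis) of 8 complement regulators (y axis) in 4 comparisons, each point with its 95% interval from the edgeR fit; red marks an adjusted p under 0.10. Serping1 is red in the 3 comparisons with SAH mice and is not called in Sham against Naive, where its value was 0.41.

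Between Sham and Naive, 0 of the 8 regulators were called by edgeR or by DESeq2, and 1, Serping1, had an unadjusted p under 0.05. Over all genes 0.00661% rose, which is 1 gene. The log2 fold change of Serping1 was 0.41 (95% interval 0.18 to 0.64), and its edgeR adjusted p was 1. The means were 8.53 ± 0.627 CPM (SD, n = 3) in Sham and 6.42 ± 0.138 CPM (SD, n = 3) in Naive. The other 7 log2 differences between Sham and Naive ran from −0.19 (Cd46) to 0.057 (Cr1l), with intervals that included 0.

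The summed level of the 10 fibroblast and meningeal markers moved with the groups as Serping1 did. It was 414.9, 384.0, 206.5 and 289.5 CPM in SAH mice 1 to 4, 188.6 to 194.3 CPM in Sham and 146.1 to 156.9 CPM in Naive mice, with no marker of the list at 0. SAH mouse 3 had a marker sum of 206.5 CPM, close to the highest Sham mouse at 194.3 CPM, and 14.8 CPM of Serping1, where the highest Sham mouse had 9.23 CPM. All 10 choroid plexus markers had positive log2 differences, with medians of 0.85 for SAH against control, 0.40 for SAH against Sham and 1.65 for SAH against Naive, where 2 of them (Ttr and Kcnj13) rose and 10 of 10 had an unadjusted p under 0.05. Between Sham and Naive their median was 1.29, with 0 of 10 called by edgeR or DESeq2 and 3 at an unadjusted p under 0.05. Mouse by mouse their sum was 347.8, 515.4, 2056 and 1485 CPM in SAH mice 1 to 4, 514.4, 271.7 and 1518 CPM in Sham mice and 264.0 to 302.3 CPM in Naive mice. Sham mouse 7, at 1518 CPM, was above SAH mice 1, 2 and 4 in this sum, and its Serping1 level was 8.37 CPM. The part of meningeal, choroid plexus or vascular tissue in the Serping1 difference was not tested.

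The 5 genes whose log2 CPM followed Serping1 most closely over the 10 mice, of 14993 tested, were Efemp1 (Pearson r = 0.98), Itih2 (0.98), Serpinf1 (0.98), F13a1 (0.97) and Lyz2 (0.97). Efemp1 encodes an extracellular matrix protein, Itih2 an inter-alpha-trypsin inhibitor heavy chain, Serpinf1 another serpin, F13a1 a coagulation factor subunit and Lyz2 the lysozyme of myeloid cells. Efemp1 ranged from 14.1 to 20.3 CPM in SAH and from 8.07 to 10.1 CPM in control. Itih2 ranged from 7.58 to 9.28 CPM in SAH and from 1.88 to 4.23 CPM in control. With each group's mean removed, the r values were 0.81, 0.82, 0.84, 0.69 and 0.54 in the same order. For the markers Fmod, Col1a2, Gfap and Ttr, r with Serping1 was 0.95, 0.92, 0.76 and 0.57. With each group's mean removed, the values of these markers were 0.87, 0.67, −0.33 and 0.23. The mice share group and dissection in these correlations, which are given as a description.

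Cfi, at chr3:129539657-129578246 (mm9, plus strand), was at or near 0 throughout. No count was seen in the 4 SAH mice, and 4 control mice had 1 count each (Sham mice 5 and 6, Naive mice 9 and 10). A count of 0 allows up to 3 counts, which is 0.112 to 0.149 CPM in the SAH libraries. No mouse of either group had more than 1 count, which is under that limit, so no fold change is given, and a difference between the groups was not detectable at this depth.

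Leaving aside the CSMD proteins, the 4 membrane-bound regulators (Cr1l, Cd55, Cd46 and Cd59a) had low to moderate counts and no called difference. Cd46, Cr1l and Cd55 lie on chromosome 1, and Cd59a on chromosome 2. Cd46 (chr1:196868094-196918442) is 11.5 kb from Cr1l (chr1:196929982-196957764), which in turn is 5.24 kb from the complement receptor gene Cr2, all on the minus strand of mm9. Cd55 (chr1:132335607-132359317) is 16.0 kb from its paralog Cd55b, and 9.62% of the 50-base stretches of its transcripts also occur in that paralog, named Daf2 in the reference. Reads from such stretches can map to both genes and were not counted by the authors.

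Cr1l, the rodent cofactor gene Crry, measured 12.4, 14.5, 13.4 and 15.4 CPM in SAH mice 1 to 4 and 12.3 to 13.6 CPM in control. SAH mice 2 and 4 were above all control mice, and the other two were within their range. The means of 13.9 ± 1.28 (SD, n = 4) and 13.1 ± 0.538 CPM (SD, n = 6) gave a log2 fold change of 0.093 (95% interval −0.059 to 0.24, edgeR adjusted p = 0.534). With each mouse left out it ran from 0.041 (without SAH mouse 4) to 0.14 (without SAH mouse 1).

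Cd55 measured 7.20, 6.80, 6.67 and 8.59 CPM in SAH mice 1 to 4, 8.25, 6.21 and 7.97 CPM in Sham mice and 7.56, 7.15 and 7.00 CPM in Naive mice. SAH mouse 4 was the highest of all 10, and the other 3 SAH mice lay within the control range. Its log2 fold change was −0.0054 (95% interval −0.23 to 0.22, edgeR adjusted p = 0.987), and its paralog Cd55b had 0 to 2 counts per mouse. Cd46 had the lowest counts of the tested members, 28 to 62 per mouse, and measured 1.35, 2.28, 1.92 and 1.84 CPM in SAH mice 1 to 4. The Sham mice had 2.43, 1.40 and 1.13 CPM, so that the highest and the lowest mouse of all 10 were both Sham, and the Naive mice had 2.03, 1.44 and 2.12 CPM. The log2 fold change of Cd46 was 0.079 with a wide interval of −0.40 to 0.56 (edgeR adjusted p = 0.884), so a change of moderate size could not be seen.

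Cd59a (chr2:103935958-103955567, mm9, plus strand, 5 exons, 19.8% of exon bases coding) had the second largest log2 fold change of the members. It measured 4.45, 3.97, 6.77 and 4.60 CPM in SAH mice 1 to 4, 3.92, 3.46 and 3.94 CPM in Sham mice and 4.48, 3.03 and 3.44 CPM in Naive mice. All 4 SAH mice were above the 3 Sham mice, but SAH mice 1 and 2 were below Naive mouse 8. Against control the log2 fold change was 0.40 (95% interval 0.067 to 0.73, edgeR adjusted p = 0.207), and it did not pass. Against Sham it was 0.38 (95% interval −0.035 to 0.80, edgeR adjusted p = 0.566) and against Naive 0.42 (95% interval −0.0035 to 0.84, edgeR adjusted p = 0.34). Without SAH mouse 3 the value against control was 0.22 (edgeR adjusted p = 0.525). The paralog Cd59b had 2 to 13 counts per mouse, and 3.87% of the 50-base stretches of Cd59a transcripts occur in it too.

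For 4 of the 9 members (Cd55, Cd46, Cr1l and Cd59a) a window of the 250 bases before the transcription start was at hand from RefSeq (GRCm38.p6, a build other than that of the counts). The windows were searched on both strands for a STAT site (TTCNNNGAA), an interferon response element (GAAA, any 2 bases, GAAA) and an ETS-IRF site (GGAA, any 2 bases, GAAA), the last of which can overlap the second. The motifs were chosen after the data were seen. The Cd59a window is shown because it held the 1 match found, to the interferon response element, in capitals, 187 bases before the start (chr2:104095551-104095800, plus strand):
Cd59a: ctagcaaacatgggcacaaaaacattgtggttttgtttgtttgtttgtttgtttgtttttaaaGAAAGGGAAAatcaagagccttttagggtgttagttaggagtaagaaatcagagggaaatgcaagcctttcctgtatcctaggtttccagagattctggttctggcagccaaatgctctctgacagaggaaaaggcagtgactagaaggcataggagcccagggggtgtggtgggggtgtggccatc
Of 32851 windows of this length, 7.02% held the STAT site, 2.98% the interferon response element and 2.30% the ETS-IRF site. A match to letters is a description of the sequence.

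Clu, which encodes clusterin, a secreted chaperone made by astrocytes, lies at chr14:66587320-66600382 (mm9, plus strand) and was by far the most abundant member. Its level was 1087, 986.5, 1382 and 1174 CPM in SAH mice 1 to 4 and between 1031 and 1079 CPM in the 6 control mice. SAH mice 1, 3 and 4 were above all control mice, and SAH mouse 2 was below all of them. The SD was 168 CPM in SAH (mean 1157) and 20.2 CPM in control (mean 1055). The log2 fold change of 0.13 (95% interval −0.013 to 0.28, edgeR adjusted p = 0.344) did not pass. Against Sham and against Naive alone it was 0.13 in each (edgeR adjusted p = 0.652 and 0.492). Against control it was 0.20 without SAH mouse 2 (edgeR adjusted p = 0.0761, past the threshold) and 0.039 without SAH mouse 3 (edgeR adjusted p = 0.78).

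The summed level of the 10 astrocyte markers also varied most among the SAH mice. It was 7018, 6270, 7762 and 6923 CPM in SAH mice 1 to 4 and 6290 to 6772 CPM in control. SAH mouse 2 was lowest and SAH mouse 3 highest both in this sum and in Clu, while mice 1 and 4 were in the other order. Whether astrocyte RNA accounts for the spread of Clu was not tested.

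Csmd1 and Csmd2 are very long genes. Csmd1 (chr8:15892545-17535385, minus strand, 70 exons) spans 1643 kb and Csmd2 (chr4:127665288-128244900, plus strand, 71 exons) spans 580 kb of mm9. Csmd1 measured 83.3, 86.0, 103.7 and 98.5 CPM in SAH mice 1 to 4 and 73.7 to 101.9 CPM in control, and the groups overlapped. Its log2 fold change was 0.093 (95% interval −0.093 to 0.28, edgeR adjusted p = 0.612). Against Sham it was 0.18 (95% interval −0.033 to 0.39, edgeR adjusted p = 0.594) and against Naive 0.010 (95% interval −0.20 to 0.22, edgeR adjusted p = 0.973). Sham mouse 7 was the lowest of all 10 mice at 73.7 CPM, and SAH mouse 3 the highest. With each mouse left out, the value against control ran from 0.040 (without SAH mouse 3) to 0.14 (without Naive mouse 9). Against Naive it ran from −0.081 (without Naive mouse 10) to 0.089 (without Naive mouse 9), and it was also below 0 without SAH mouse 3 or 4.

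Csmd2 was the 1 member whose log2 interval against control lay below 0. It had 53.3, 56.9, 48.0 and 52.4 CPM in SAH mice 1 to 4, 59.4, 60.4 and 54.7 CPM in Sham mice and 69.8, 63.9 and 53.1 CPM in Naive mice. SAH mice 3 and 4 were below all control mice, and mice 1 and 2 were within the control range. The log2 fold change was −0.19 (95% interval −0.35 to −0.033), with an unadjusted p of 0.0212 and an edgeR adjusted p of 0.202. Against Naive it was −0.24 (edgeR adjusted p = 0.213), and against Sham it was −0.14 (edgeR adjusted p = 0.629). Without Naive mouse 10 the value against Naive was −0.34 (edgeR adjusted p = 0.0713), past the threshold. Neither gene's exons overlap those of another gene on either strand.

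To compare levels between genes, CPM was divided by exon length (CPM per kb). In control mice the order was Clu (583.5 ± 11.2 CPM per kb, SD, n = 6), Cr1l (7.87 ± 0.323), Csmd1 (6.10 ± 0.726), Csmd2 (4.44 ± 0.451), Serping1 (4.11 ± 0.673), Cd55 (2.91 ± 0.291), Cd59a (1.99 ± 0.271) and Cd46 (1.45 ± 0.420). Clu stood 74.1-fold above Cr1l and at the 99.8th percentile of all tested genes. The ranges of Csmd2 and Serping1 overlapped, as did those of Cd59a and Cd46, and the other neighbours in this order had ranges that did not overlap. Serping1 ranked 5 in every Naive mouse, 4 in every Sham mouse and 2 in every SAH mouse, where it had 9.29 ± 0.792 CPM per kb (SD, n = 4).

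**Figure D3:**
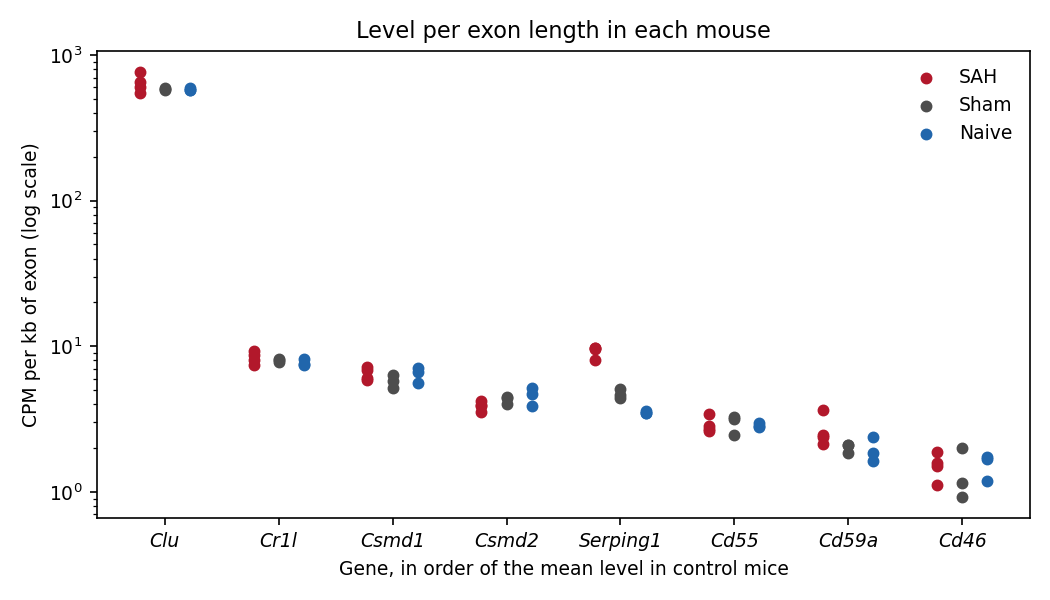
Level per exon length (y axis, CPM per kb of exon, log scale) of 8 complement regulators (x axis, in order of the control mean) in each mouse, coloured by group. Clu lies far above the rest, and Serping1 is the gene whose 3 groups are stacked without overlap, with SAH highest and Naive lowest.

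Other genes of the system, on lists drawn up by role, show what surrounds the 9 regulators. Of 8 further regulators reported here and tested, 1 (Vtn) rose in SAH against control and 0 fell (0 at an unadjusted p under 0.05, 0 by DESeq2), with a median log2 fold change of 0.067. Vtn, the gene of vitronectin, which binds terminal complexes, had 69.2 to 90.7 CPM in SAH and 48.4 to 69.2 CPM in control (log2 fold change 0.53, edgeR adjusted p = 0.00961), and its lowest SAH mouse was level with its highest control mouse. Vtn is also on the mural cell marker list.

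In the classical pathway 7 of 8 tested genes rose, and the 2 largest were C2 (log2 fold change 1.95) and C4b (1.81). C1ra and C1s1, the proteases that C1 inhibitor inactivates, rose by 0.79 (edgeR adjusted p = 0.0655) and 1.09 (edgeR adjusted p = 0.0158) on the log2 scale. The 3 tested genes of the lectin pathway and the 1 tested gene of the terminal pathway did not pass, with 0 at an unadjusted p under 0.05 and 0 by DESeq2. C3 rose by 1.52 (edgeR adjusted p = 0.0135), and it was 1 of 2 tested genes on its list. Of 7 tested receptors, C3ar1, which binds C3a, rose by 0.98 (edgeR adjusted p = 0.00629). DESeq2 also called Itgb2 (edgeR log2 fold change 0.61, edgeR adjusted p = 0.114), and 4 of the 7 receptors had positive values at an unadjusted p under 0.05.

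**Figure D4:**
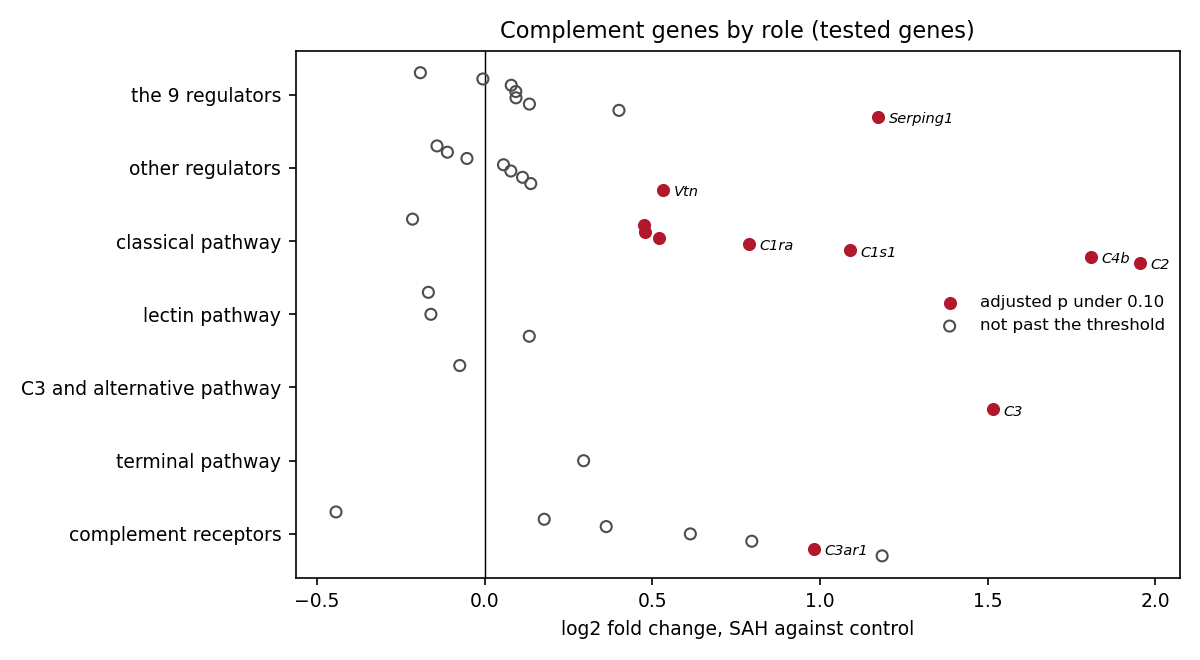
Log2 fold change in SAH against control (x axis) of the tested genes of the complement lists, in rows by role (y axis); filled red points passed an adjusted p of 0.10 and open points did not. Serping1 stands apart in the row of the 9 regulators, whose other tested genes lie between −0.19 and 0.40, and in the classical pathway 7 of 8 genes are red.

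Against Sham alone, 3 classical pathway genes (C4b, C2 and C1s1) rose, with C3ar1 among the receptors, and C3 did not pass (log2 fold change 1.56, edgeR adjusted p = 0.113). With DESeq2 in this comparison 6 classical pathway genes were called, and C3 and Vtn were called too. Against Naive alone, Vtn, 5 classical pathway genes, C3 and C3ar1 rose. Cfb, the gene of factor B, was also called there, but its counts were 10 to 23 per SAH mouse against 0 to 6 per control mouse, so it passed the filter on low counts only through the SAH mice, and it was not tested against control.

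A pair of ratios set a regulator against the proteins it acts on, within each mouse, with levels per exon length and on the log2 scale. The ratio of Serping1 to C1ra and C1s1 together was 2.98, 2.81, 2.86 and 2.36 in SAH mice 1 to 4, 2.34, 2.72 and 2.98 in Sham and 2.17, 2.43 and 2.01 in Naive mice. The SAH and Sham values covered almost the same range. The difference between SAH and control was 0.31 (2-sided exact permutation test over 210 splits, p = 0.181, adjusted over the 2 ratios p = 0.181). It was 0.068 against Sham alone (exact permutation p = 0.714) and 0.55 against Naive alone (exact permutation p = 0.0857), so inhibitor and protease transcripts were not shown to change by unequal amounts. C1ra and C1s1 together had few counts, 63 to 135 per SAH mouse and 36 to 61 per control mouse. Every Sham mouse was below every Naive mouse in C1s1 (log2 difference −0.59, not called), which raises the Sham ratio.

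The ratio of C3 and C4b together to Cr1l was 0.89, −0.09, 1.61 and 0.94 in SAH mice 1 to 4, −0.80, −0.62 and −0.73 in Sham and −0.65, −0.95 and −0.88 in Naive mice. Every SAH mouse was above every control mouse, and the SAH mice spread more widely. SAH mice averaged 0.84 ± 0.70 (SD, n = 4), against −0.77 ± 0.13 (SD, n = 6) for control mice. The difference of 1.61 had p = 0.00476 by the 2-sided exact permutation test, the smallest that 210 splits can give, and 0.00952 adjusted over the 2 ratios. C4b and C3 each already had every SAH mouse above every control mouse, and Cr1l had a log2 fold change of 0.093. The ratio uses these same counts, so its p is no evidence beyond the separate tests of these genes. Against Sham alone the difference was 1.55 and against Naive alone 1.67, each with an exact permutation p of 0.0571, which is not past 0.05. The sum was mostly C4b, which ranged from 7.72 to 23.4 CPM per kb in SAH and from 3.67 to 4.78 CPM per kb in control. C3 ranged from 0.472 to 1.38 CPM per kb in SAH and from 0.153 to 0.343 CPM per kb in control. C4b has a near-identical copy, C4a, and reads that map to both were not counted, so its level is uncertain.

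**Figure D5:**
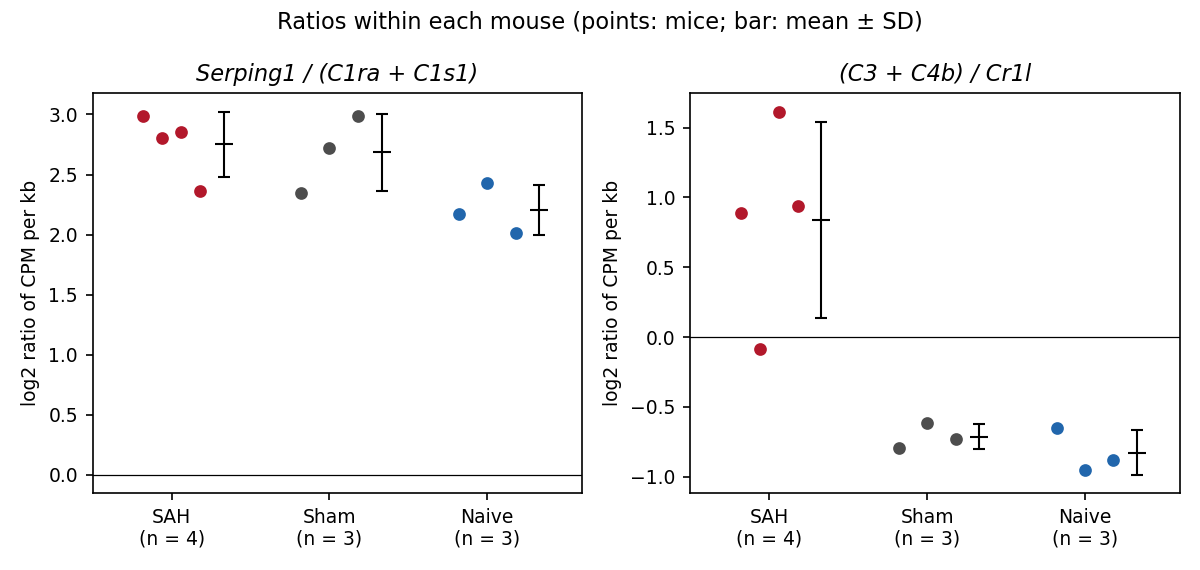
Log2 ratio within each mouse (y axis) of Serping1 to C1ra plus C1s1 (left) and of C3 plus C4b to Cr1l (right), by group (x axis); points are mice and bars give the mean ± SD. On the left the groups overlap, and on the right the 4 SAH mice (−0.09 to 1.61) lie above the 6 control mice (−0.95 to −0.62).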

How the data were processed

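Hippocampal RNA of 10 mice (4 SAH, 3 Sham, 3 Naive) was sequenced as stranded, ribosomal RNA-depleted libraries (50-base pairs). The authors aligned reads to mm9 with STAR and counted them per gene name with featureCounts 1.6.2 (reverse-stranded, read pairs), leaving out multi-mapped and ambiguous reads. The deposited values are raw counts per gene, without normalization. Libraries held 19743388 to 27254655 counts, and no 2 libraries were duplicates.

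Genes passing filterByExpr (minimum count 10, total 15) were tested with edgeR 4.0.16 in R 4.3.3 (TMM, quasi-likelihood, Benjamini-Hochberg, adjusted p under 0.10), SAH against control in a fit of 2 groups and other pairs in a fit of 3. The scripts were tested on simulated data with 200 genes changed in SAH. In the comparisons with SAH mice, 9.23 to 12.3% of edgeR calls and 17.4 to 18.6% of DESeq2 calls were false. Between Sham and Naive, where no gene was changed, edgeR called 2 genes and DESeq2 15. Standard errors are log2 fold changes over the square root of F. Limits at 3 counts cover counting error only.

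Alternatives were DESeq2 1.42.0, its size factors, library size alone, no filter, 10 counts in every mouse, a robust fit, adjusted p under 0.05, averaged or single control groups, and each mouse left out. The members, gene lists, naming rule and alternatives were chosen with earlier results of these data known. All members were named. Of each other pathway list the 2 largest changes past the threshold were named, plus binding partners, paralogs, and the 5 genes most correlated with the member of smallest p. Marker genes, a neighbour (Cr2), a receptor gene called by DESeq2 alone (Itgb2) and the genes called against Sham or Naive alone were named in addition. The labels name mm9 and, without a role, GRCh38. Exon coordinates were compared with an mm9 annotation, and promoter windows came from RefSeq (GRCm38.p6). A gene of the regulator list is not reported here.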

Additional observations from a re-analysis of the deposited data

Results flagged for a closer look

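The Serping1 level of SAH mouse 3, 14.8 CPM, stood apart from the other 3 SAH mice, which lay between 17.5 and 17.7 CPM. The gap was 0.932 of the range of the 4 mice, above Dixon's 95% critical value of 0.829. It was the 1 far value among 20 groups of values examined, and chance gives about 1 in 20. SAH mouse 3 also had the lowest fibroblast and meningeal marker sum of the SAH mice (206.5 CPM) and the highest choroid plexus marker sum (2056 CPM), Clu level (1382 CPM) and Cd59a level (6.77 CPM). The cause was not tested. Without this mouse the log2 fold change of Serping1 against control was 1.23.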

How the results depend on the processing

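No paired analysis was possible because the labels number the mice 1 to 10 across the groups, so that no number is shared between groups. The call of Serping1 held in all 18 alternatives of each comparison with SAH mice, with log2 fold changes of 1.13 to 1.24 against control, 0.94 to 1.05 against Sham and 1.37 to 1.46 against Naive. Serping1 was not called in Sham against Naive in any of 18 alternatives (0.35 to 0.45, edgeR or DESeq2 adjusted p 0.564 to 1). No call changed direction. The count of regulators called higher against control ran from 1 to 2 with each mouse left out (2 without SAH mouse 2, where Clu passed), and the count called lower against Naive ran from 0 to 1 (1 without Naive mouse 10, where Csmd2 passed). The uncalled log2 fold changes of Cd55 and Cd46 against control were above 0 in 6 and 16 of 18 alternatives. The log2 ratio of C3 and C4b to Cr1l was 1.55 higher in SAH against Sham mice alone and 1.67 higher against Naive mice alone, each with an exact permutation p of 0.0571 (2 of 35 splits), and 1.35 to 1.92 with each mouse left out. The ratio of Serping1 to C1ra and C1s1 differed by 0.068 against Sham alone and 0.55 against Naive alone, and by 0.22 to 0.44 with each mouse left out (exact permutation p 0.0556 to 0.714 over all alternatives).

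The background counts moved more. Against control 470 genes rose and 231 fell with edgeR, 632 and 398 with DESeq2, and 277 and 92 at an adjusted p under 0.05. With each mouse left out, 223 to 686 rose and 85 to 407 fell. Against Sham 80 rose and 29 fell, with DESeq2 225 and 77, without a filter 134 and 48, with a robust fit 59 and 16, at an adjusted p under 0.05 41 and 8, with only SAH and Sham mice 12 and 0, and with each mouse left out 6 to 166 and 0 to 55. Against Naive 307 rose and 146 fell, with DESeq2 467 and 277, at an adjusted p under 0.05 186 and 74, with only SAH and Naive mice 201 and 81, and with each mouse left out 87 to 443 and 22 to 240. Between Sham and Naive 1 rose and 0 fell (305 genes at an unadjusted p under 0.05), with DESeq2 2 and 0. Cfi, with at most 1 count per mouse, was too low to test.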
